A study of Mus musculus with 6 samples.

Results

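A set of 10 genes that encode brakes on the ERK pathway were followed in differentiating mouse osteoblasts with and without metformin: the dual-specificity phosphatases Dusp1, Dusp4, Dusp5 and Dusp6, the Sproutys Spry1, Spry2 and Spry4, and the Spreds Spred1, Spred2 and Spred3. They were chosen by gene symbol, and each of the 10 symbols matched 1 of the 54532 genes in the deposited table. With metformin, Dusp1 rose 2.57-fold and Dusp5 rose 2.39-fold in mean level, Spry1 fell to a mean of 6.97 from 13.9 FPKM, and the remaining 7 genes were not called in either direction. Dusp6, the most abundant of the 10 in osteogenic medium alone, stood at 60.4 FPKM without and 59.7 FPKM with metformin.

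Growth factor receptors signal through Ras, Raf and MEK to the ERK kinases, and ERK activity induces several of the genes that shut it off again. DUSPs, also called MAP kinase phosphatases, remove the activating phosphates from MAP kinases. Dusp1, Dusp4 and Dusp5 encode nuclear enzymes and Dusp6 a cytoplasmic one, and Dusp5 and Dusp6 act mainly on ERK while Dusp1 and Dusp4 also act on the stress kinases JNK or p38. Sprouty proteins act between the receptor and Raf, and Spred proteins bring the Ras inactivator neurofibromin to the membrane. In osteoblast lineage cells this pathway carries signals of fibroblast growth factors and other mitogens.

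The cells were MC3T3-E1, an established line of mouse calvarial pre-osteoblasts. All 6 samples were kept in osteogenic medium, which held β-glycerophosphate, ascorbic acid and dexamethasone, for 3 days. Of these, 3 received no further agent and 3 also received 0.2 mM metformin, a biguanide used against type 2 diabetes, and the dose and the time were taken from the study's own text because the sample labels give neither. One line at 1 time point and 1 dose limits the comparison to those conditions, and because the samples are bulk RNA, fewer cells of a type and less RNA per cell cannot be told apart.

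Levels are given as FPKM, the reads of a gene scaled by its length and by a size for each library, so that levels of different genes can be set side by side. Between 18399861 and 22111790 reads per sample could be recovered from the values. The change with metformin is given as the log2 fold change of FPKM + 1 from limma-trend, fitted over the 12681 genes with a mean of at least 0.5 FPKM, and a gene was called at a Benjamini-Hochberg adjusted p-value under 0.05 over all of them. This scale understates the change of genes with few FPKM. Control replicate 1 stood apart, with correlations across genes of 0.96 and 0.952 with the other controls, where those had 0.988 with each other and the metformin samples 0.992. Therefore each result is also given without it where that changes a call. The share of mitochondrial reads was 6.36% to 10.01% in osteogenic medium and 2.72% to 3.16% with metformin, and its part in the results was not tested. The osteoblast label fitted the markers only in that all 10 osteoblast markers were above the FPKM limit. With metformin 3 were higher, Col1a1, Col1a2 and Dlx5, and 2 lower, Ibsp and Spp1, where 13.2% and 9.28% of all tested genes were. The summed levels of the 10 were 11420 to 13430 FPKM without and 8170 to 8662 with metformin. Spp1 alone had means of 7703 FPKM without and 2704 with metformin, while Alpl had 3.16 and 2.71 and Bglap 8.04 and 5.37. Alpl and Bglap were below the chondrocyte markers Sox9 (25.4 and 20.7) and Col2a1 (9.72 and 8.92), while the chondrocyte marker Col10a1 had 3.79 and 0.264. Of the markers of other cell types, 2 of 6 adipocyte, 3 of 6 chondrocyte, 1 of 5 muscle cell and 1 of 5 macrophage genes passed the limit, and Myod1, Myog and Myf5 of muscle, Fcgr1 of macrophages and Cidec of adipocytes were listed at 0 in every sample. Of the 7 that passed, 2 were called, Col10a1 of the chondrocyte list and Cd68 of the macrophage list, both lower with metformin. Without control replicate 1, 4 osteoblast markers were higher and 3 lower, where 23.4% and 20.4% of all tested genes were. The added calls were Sp7, higher (adjusted p = 0.023), and Bglap, lower (log2 fold change -0.91, adjusted p = 0.00314). Bglap had 2.22 FPKM in control replicate 1 and 12.3 and 9.55 in the other controls. Cebpa of the adipocyte list and Col2a1 and Sox9 of the chondrocyte list were then also called lower (adjusted p = 0.0156, 0.0199 and 0.0019). The summed levels were 7.76 to 12.2 FPKM without and 8.64 to 9.66 with metformin for the adipocyte list, 29.9 to 43.6 and 29.0 to 31.0 for the chondrocyte list, 1.196 to 1.87 and 2.07 to 2.40 for the muscle list, and 1.97 to 2.18 and 1.12 to 1.35 for the macrophage list, and their part in the results was not tested.

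All 10 genes passed the FPKM limit and were tested. Of them 2 were called higher with metformin, where 13.2% of all tested genes were, and 1 was called lower, where 9.28% were. The metformin samples lay entirely above the controls for 3 of the 10 (23.6% of all tested genes did) and entirely below them for 3 (20.5% did). These counts were near the background, so nothing is read from them about the 10 genes as a whole, and the median log2 fold change of the 10 was -0.0087 against 0.0053 for all tested genes. Without control replicate 1, 2 of the 10 were higher, where 23.4% of all genes were, and 3 were lower, where 20.4% were, the 2 added lower calls being Dusp4 and Spred1.

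**Figure D1:**
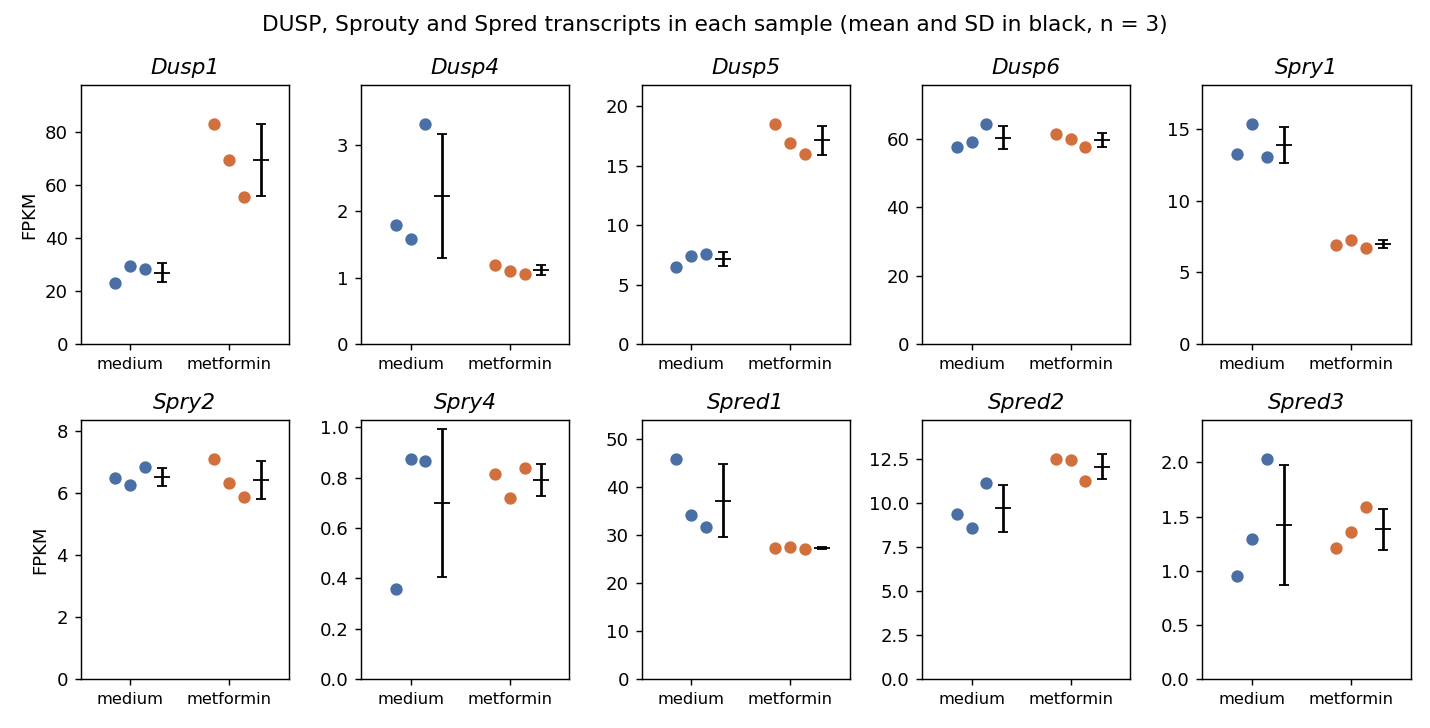
Level of each of the 10 transcripts in FPKM on the vertical axis, from 0, for the 3 samples in osteogenic medium (medium, blue) and the 3 with metformin (orange), with the mean and SD of each group in black. The groups are apart for Dusp1, Dusp5 and Spred2 upwards and for Dusp4, Spry1 and Spred1 downwards, and overlap for Dusp6, Spry2, Spry4 and Spred3.

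In osteogenic medium alone the order of mean levels was Dusp6 (60.4 FPKM), Spred1 (37.2), Dusp1 (27.0), Spry1 (13.9), Spred2 (9.68), Dusp5 (7.16), Spry2 (6.53), Dusp4 (2.23), Spred3 (1.42) and Spry4 (0.699). Neighbours in that order overlapped between samples only for Dusp5 with Spry2 and for Dusp4 with Spred3. With metformin the order was Dusp1 (69.4 FPKM), Dusp6 (59.7), Spred1 (27.3), Dusp5 (17.1), Spred2 (12.0), Spry1 (6.97), Spry2 (6.44), Spred3 (1.38), Dusp4 (1.12) and Spry4 (0.791). There, Dusp1 overlapped Dusp6 and Spry1 overlapped Spry2, so that Dusp1 had reached the range of Dusp6 and Spry1 that of Spry2.

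Of the phosphatases, Dusp1 showed the largest log2 fold change. Dusp1 (chromosome 17, 26505590 to 26508519, minus strand, GRCm38) encodes the nuclear enzyme MKP-1 and is known as an early response gene. Its level was 23.0, 29.6 and 28.4 FPKM in control replicates 1 to 3 and 82.9, 69.7 and 55.7 FPKM in metformin replicates 1 to 3. Each metformin sample was above each control, and the metformin samples were spread more widely than the controls, with a coefficient of variation of 19.6% against 13.0%. The log2 fold change was 1.32 (standard error 0.17, 95% interval 0.92 to 1.72, adjusted p = 0.00236, n = 3 per group), which ranked 257 of the 12681 tested genes from the highest. The call held in all 14 alternative fits, with log2 fold changes of 1.19 to 1.47.

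Dusp5 (chromosome 19, 53529109 to 53542431, plus strand) encodes a nuclear phosphatase specific for ERK. It had 6.49, 7.40 and 7.59 FPKM in the controls and 18.5, 16.9 and 16.0 FPKM with metformin. The groups were far apart relative to their spread, which was 8.24% of the mean in the controls and 7.23% with metformin. The log2 fold change was 1.15 (standard error 0.095, 95% interval 0.92 to 1.38, adjusted p = 0.000397), and it was 1.09 to 1.26 in the 14 alternative fits, all of which called it higher. An antisense gene of GENCODE M21 that shares 547 bases with a Dusp5 transcript is not among the genes analysed here, and whether the counting used strand is not given in the sources used here, so reads from the antisense RNA could be counted in Dusp5.

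Dusp6 encodes MKP-3, the cytoplasmic phosphatase of ERK whose transcript is a common readout of fibroblast growth factor signalling. Its level was 57.8, 59.2 and 64.2 FPKM in the controls and 61.5, 60.0 and 57.6 FPKM with metformin. The groups overlapped throughout, and the coefficient of variation was 5.63% in the controls and 3.32% with metformin. The log2 fold change was -0.015 with a 95% interval of -0.22 to 0.19 (adjusted p = 0.921), an interval that does not reach the changes of Dusp1 or Dusp5.

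Dusp4, which encodes the nuclear phosphatase MKP-2, was a low transcript, with 56 to 178 recovered reads per sample. It had 1.799, 1.58 and 3.31 FPKM in the controls and 1.196, 1.11 and 1.05 FPKM with metformin. Every metformin sample was below every control, but control replicate 3 alone was nearly as high as the other controls together, and the log2 fold change of -0.57 (standard error 0.20, 95% interval -1.04 to -0.11) had an adjusted p = 0.082. Without control replicate 3 it was -0.35, and without control replicate 1 it was -0.66 and called (adjusted p = 0.0434). With the pseudocount of 0.1 it was -0.87 and not called, so the size of this difference depends on the scale, as it does for other low genes.

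Setting the phosphatases against each other within a sample removes the library scaling. There were 0.398, 0.5003 and 0.441 Dusp1 FPKM per Dusp6 FPKM in the controls and 1.35, 1.16 and 0.967 with metformin. For Dusp5 the values were 0.112, 0.125 and 0.118 per Dusp6 FPKM in the controls and 0.300, 0.281 and 0.278 with metformin. The groups did not overlap for either ratio. Summed over the 4 phosphatases the level was 96.8 ± 7.27 FPKM (SD, n = 3) without and 147 ± 16.9 FPKM (SD, n = 3) with metformin, and Dusp1 made up 27.8% ± 2.26 of that sum without and 46.8% ± 3.92 with metformin. These ratios and sums, and those of the Sproutys and Spreds given after them, are 11 measures chosen after the values were seen, and each had p = 0.1 by a two-sided exact permutation test over samples, the smallest that 3 against 3 allows.

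**Figure D2:**
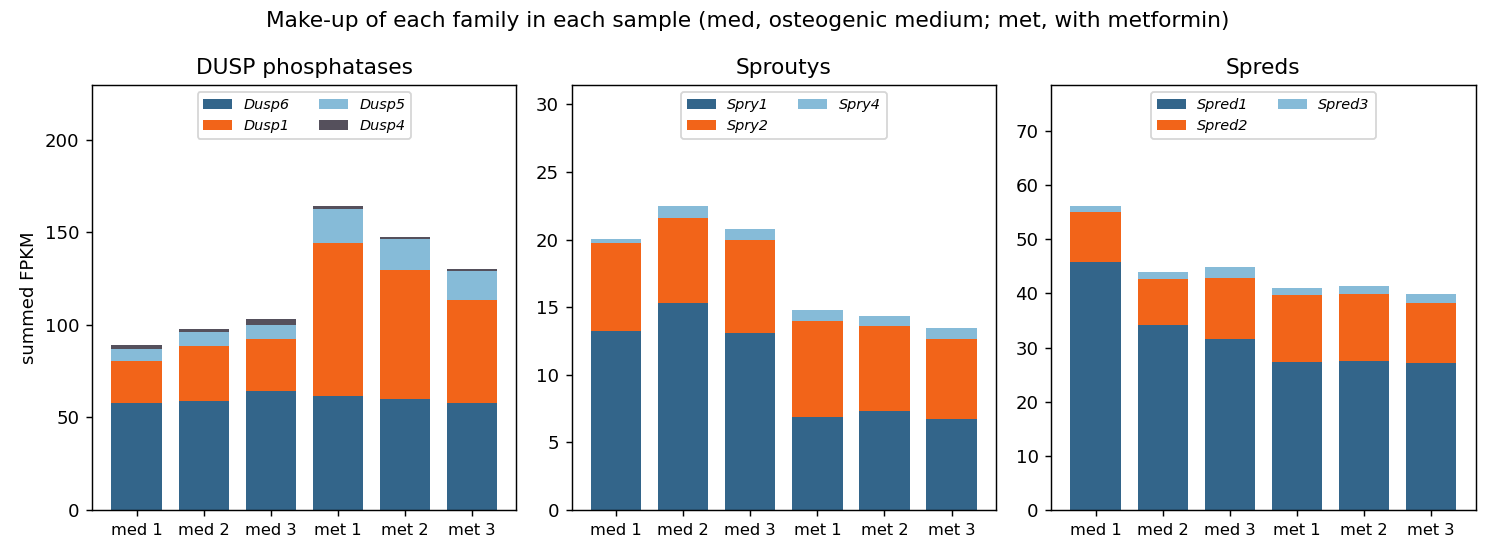
Stacked bars of FPKM, from 0, for the 4 DUSPs, the 3 Sproutys and the 3 Spreds in each of the 3 samples in osteogenic medium (med) and the 3 with metformin (met). Dusp1 takes up 25.8% to 30.3% of the DUSP bar in the controls and 42.7% to 50.5% with metformin, while Spry1 takes up 62.9% to 68.2% of the Sprouty bar in the controls and 46.5% to 50.9% with metformin.

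The sequence ahead of these genes was read from RefSeq (GRCm38.p6), where 8 of the 10 had a window of 250 bases before to 50 bases after the start site, all but Dusp4 and Spry4. The windows were searched on both strands for the cAMP response element TGACGTCA and its core TGACG, which overlaps it, for the AP-1 site TGANTCA, for the ETS site CCGGAAG and for the CArG box, the site of serum response factor. These are sites for factors known to act at early response genes. Dusp1 held the full cAMP response element from position -143 to -136 relative to the start, found in 1.79% of all 32851 windows, and a further TGACG from -191 to -187. Dusp5 held a pair of adjoining CArG boxes, from -82 to -73 and from -72 to -63, where 1.63% of all windows held at least 1, and a TGACG from -55 to -51. TGACG alone was in 20.8% of all windows. Dusp6, Spry1, Spry2, Spred1 and Spred3 held none of these sites, and Spred2 held a TGACG from -51 to -47. No window of the 8 held TGANTCA (7.81% of all windows) or CCGGAAG (8.86%). The GC box GGGCGG, in 35.7% of all windows, was in 6 of the 8, all but Dusp6 and Spry2, and no window held TATAAA (13.6%). The 8 windows had 55% (Spred3) to 72.3% (Spred1) GC and 8 to 40 CG dinucleotides. Dusp1 had 67% and 31, and the medians of all windows were 52.7% and 7. Shares among windows of like GC content were not counted. The stretch from 250 to 51 bases before the start is shown for the called genes, with Dusp6 as the uncalled phosphatase beside them, 5′ to 3′ along the gene, with matches to the cAMP response element, its core and the CArG box in capitals:

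Dusp1 (chr17:26508523-26508722, minus strand): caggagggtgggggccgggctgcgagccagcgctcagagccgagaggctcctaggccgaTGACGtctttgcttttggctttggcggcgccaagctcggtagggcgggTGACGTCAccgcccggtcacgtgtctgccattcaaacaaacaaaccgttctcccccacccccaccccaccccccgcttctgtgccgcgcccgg

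Dusp5 (chr19:53528895-53529094, plus strand): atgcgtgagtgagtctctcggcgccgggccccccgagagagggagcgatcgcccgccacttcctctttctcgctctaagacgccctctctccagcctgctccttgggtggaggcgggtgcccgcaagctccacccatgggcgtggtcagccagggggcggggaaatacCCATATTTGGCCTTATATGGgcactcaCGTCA

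Dusp6 (chr10:99262981-99263180, plus strand): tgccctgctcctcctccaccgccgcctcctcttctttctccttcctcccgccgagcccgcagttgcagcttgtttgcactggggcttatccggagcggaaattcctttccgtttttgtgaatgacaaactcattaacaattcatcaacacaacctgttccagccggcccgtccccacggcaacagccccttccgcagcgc

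Spry1 (chr3:37639697-37639896, plus strand): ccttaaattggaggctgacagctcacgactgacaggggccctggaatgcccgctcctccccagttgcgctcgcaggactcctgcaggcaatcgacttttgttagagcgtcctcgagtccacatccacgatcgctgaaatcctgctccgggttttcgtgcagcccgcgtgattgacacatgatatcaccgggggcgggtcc

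The matches are descriptions of these letters and show no binding.

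Of the Sproutys, Spry1 (chromosome 3, 37639947 to 37644598, plus strand), which encodes an inhibitor of receptor signalling upstream of Raf, was the one called. It had 13.2, 15.3 and 13.1 FPKM in the controls and 6.89, 7.30 and 6.73 FPKM with metformin. The lowest control was well above the highest metformin sample, and the ratio of the means was 0.502. The log2 fold change was -0.90 (standard error 0.091, 95% interval -1.11 to -0.68, adjusted p = 0.000889), which ranked 242 of the 12681 tested genes from the lowest. All 14 alternative fits called it lower, with log2 fold changes of -0.99 to -0.83. Spry1 shares 577 bases with the antisense gene Gm42922, whose level was at most 0.0735 FPKM in a sample.

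Spry2, a close relative of Spry1 that acts on the same step, had 6.48, 6.26 and 6.85 FPKM in the controls and 7.10, 6.33 and 5.88 FPKM with metformin. The groups overlapped, and the log2 fold change was -0.020 with a 95% interval of -0.24 to 0.20 (adjusted p = 0.898). There were 2.04, 2.45 and 1.91 Spry1 FPKM per Spry2 FPKM in the controls and 0.970, 1.15 and 1.15 with metformin, without overlap. Spry4 was the lowest of the 10 genes, with 30 reads in control replicate 1 and 72 to 84 in the other samples. It had 0.358, 0.873 and 0.865 FPKM in the controls and 0.813, 0.720 and 0.839 FPKM with metformin. Control replicate 1 alone was low, and the log2 fold change of 0.091 (95% interval -0.27 to 0.45, adjusted p = 0.707) became -0.062 without it. The 3 Sproutys together had 21.1 ± 1.22 FPKM (SD, n = 3) without and 14.2 ± 0.687 FPKM (SD, n = 3) with metformin, and Spry1 made up 65.7% ± 2.68 of that without and 49.1% ± 2.30 with metformin.

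No Spred was called in the limma fit on FPKM with all 6 samples or with voom on the recovered reads, although Spred1 and Spred2 had an unadjusted p under 0.05 on FPKM and Spred1 was called after a correction for GC content (adjusted p = 0.00384). Spred1, the most abundant of them, had 45.8, 34.1 and 31.65 FPKM in the controls and 27.2, 27.5 and 27.1 FPKM with metformin. All metformin samples were below all controls and lay close together, with a coefficient of variation of 0.811% against 20.3% in the controls, where replicate 1 was high. The log2 fold change was -0.41 (standard error 0.14, 95% interval -0.75 to -0.075, adjusted p = 0.0831). Without control replicate 1 it was smaller, at -0.26, but called (adjusted p = 0.0108).

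Spred2 had 9.34, 8.55 and 11.1 FPKM in the controls and 12.5, 12.4 and 11.2 FPKM with metformin. The highest control and the lowest metformin sample nearly met, and the log2 fold change was 0.29 (95% interval 0.029 to 0.56, adjusted p = 0.108). Without control replicate 3 it was 0.39 and called (adjusted p = 0.0374). Spred3 had 0.951, 1.29 and 2.03 FPKM in the controls and 1.21, 1.36 and 1.59 FPKM with metformin, so the metformin samples lay inside the range of the controls. Its log2 fold change was -0.0024 (95% interval -0.41 to 0.41, adjusted p = 0.994), and it overlaps Ggn on the other strand, which had up to 1.35 FPKM. Per Spred2 FPKM there were 4.90, 3.99 and 2.84 Spred1 FPKM in the controls and 2.19, 2.21 and 2.42 with metformin, which did not overlap. The 3 Spreds together had 48.3 ± 6.77 FPKM (SD, n = 3) without and 40.7 ± 0.738 FPKM (SD, n = 3) with metformin.

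**Figure D3:**
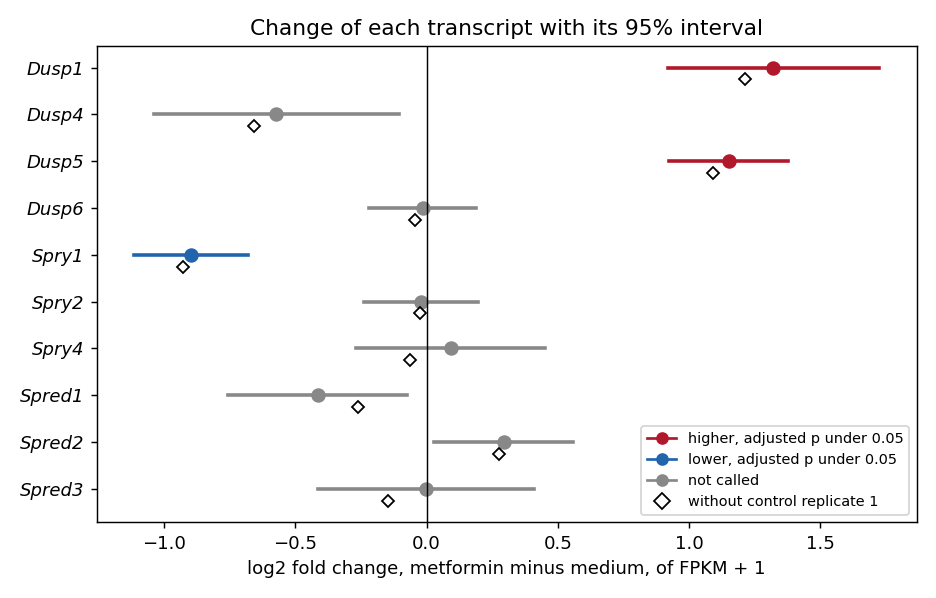
Log2 fold change of FPKM + 1, metformin minus osteogenic medium, for each gene (circle) with its 95% interval (line), coloured by the call with all 6 samples, and the value without control replicate 1 (open diamond). The intervals of Dusp1 (0.92 to 1.72), Dusp5 (0.92 to 1.38) and Spry1 (-1.11 to -0.68) lie farthest from 0, and those of Dusp6, Spry2, Spry4 and Spred3 hold 0.

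The genes differ in structure as annotated in GENCODE M21. Each phosphatase has 3 or 4 exons in its longest coding transcript, each Sprouty 2, and each Spred 6 or 7. Dusp1 spans 2930 bases, Dusp6 4259, Spry1 4652 and Dusp5 13323, while Spred1 and Spred2 span 60906 and 99652. The GC content of the longest transcript ran from 41.2% for Spred1 to 56.7% for Dusp5 and Spry1. Control replicate 1 had a deviation from the other controls with a Spearman correlation of -0.668 with GC content across genes, which are not independent replicates. Spred1, the member lowest in GC, was also the one that stood out upwards in that sample, and the part of GC content in this was not tested.

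The rest of the pathway was taken from 6 lists of 78 genes, of which 69 were tested, 16 were called higher and 6 lower, where 13.2% and 9.28% of all tested genes were. Of the other MAP kinase phosphatases, 4 of 6 were tested and 2 were higher, Dusp8 and Dusp10, which encode enzymes acting mainly on JNK and p38. Dusp10 had 2.90, 3.75 and 2.33 FPKM in the controls and 6.25, 6.71 and 7.56 FPKM with metformin, a difference of 0.99 on the log2 scale (standard error 0.15, adjusted p = 0.00431). Dusp8 had 0.945, 1.34 and 1.57 FPKM in the controls and 3.38, 3.18 and 2.90 FPKM with metformin, a difference of 0.87 on the log2 scale (standard error 0.13, adjusted p = 0.00392). For both the groups were apart. The ERK phosphatase gene Dusp7 and the JNK phosphatase gene Dusp16 were not called, with log2 fold changes of -0.11 and -0.26, and were, like Dusp2 and Dusp9 under the FPKM limit, named after their values were seen. The median log2 fold change of the 4 tested genes was 0.38, where all tested genes had 0.0053.

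Of 12 other feedback inhibitors and Ras brakes, 11 were tested, 1 was higher and 4 were lower, where 13.2% and 9.28% of all tested genes were. The median log2 fold change of the 11 was -0.13. The ubiquitin ligase gene Cblb fell by 0.72 on the log2 scale (adjusted p = 0.00192), with 9.89, 8.45 and 9.82 FPKM in the controls and 5.46, 5.14 and 5.22 FPKM with metformin. Dab2ip and Rasa3, which encode Ras GTPase activating proteins, fell by 0.72 (adjusted p = 0.0294) and 0.69 (adjusted p = 0.00432), and Rasa1, another of them, named after its value was seen, fell by 0.43 (adjusted p = 0.0459). The call of Rasa1 held in 8 of the 14 alternative fits and was lost, among others, without control replicate 3 and without each of the metformin samples in turn (adjusted p = 0.0678 to 0.165). The call of Dab2ip held in 9 of the 14 alternative fits and was lost, among others, without control replicate 2 and without each of the metformin samples in turn (adjusted p = 0.0778 to 0.103). Il17rd, the gene of the feedback inhibitor Sef, was higher by 0.39 (adjusted p = 0.0459), a call that held in 5 of the 14 alternative fits. Nf1, the gene of the neurofibromin that Spred proteins recruit, had 7.38, 4.635 and 4.59 FPKM in the controls and 4.798, 4.88 and 4.95 FPKM with metformin, and it was not called (log2 fold change -0.13, 95% interval -0.52 to 0.27).

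The next list holds the kinases that the brakes act on and their partners. Of 16 Raf, MEK and ERK genes 15 were tested, 2 were higher, where 13.2% of all tested genes were, and 13 not called, with a median of 0.053. Mapk3, the gene of ERK1, had 32.8, 54.5 and 51.7 FPKM in the controls and 54.0, 50.5 and 53.5 FPKM with metformin (log2 fold change 0.21, 95% interval -0.24 to 0.67). It was not called, and control replicate 1 was the low sample. The called genes were Rps6ka2 (log2 fold change 0.39, adjusted p = 0.0266) and Rps6ka1 (0.35, adjusted p = 0.0366), which encode RSK kinases downstream of ERK. Their calls held in 8 and 5 of the 14 alternative fits, and Rps6ka2 shares near-identical transcript sequence with Sod2. Without control replicate 1, 7 genes of this list were higher and 1 was lower, where 23.4% and 20.4% of all tested genes were. Of 16 genes of Ras and adaptors, all tested, Rras2 was called higher (log2 fold change 0.38, adjusted p = 0.0119), a call that held in 9 of the 14 alternative fits. It was lost with the replicate number as a block (adjusted p = 0.0732), with that block and the GC correction (0.0506) and without each of the metformin samples in turn (0.0701 to 0.072). Without control replicate 1 the counts of the Ras and adaptor genes were 4 higher and 3 lower, against the same shares of all genes.

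In a list of genes known to follow ERK activity, which leaves out the 10 feedback genes, most were higher. Of 12 such genes 11 were tested, 9 were called higher and 2, Etv4 and Fosl1, were not called, their median log2 fold change was 0.85, and for all 11 the metformin samples lay above the controls. Over all tested genes 13.2% were called higher and 23.6% lay above the controls. Of the 10 feedback genes, several of which ERK activity also induces, 2 were higher, where 13.2% of all tested genes were. Another 1 was lower, where 9.28% were, and 7 were not called, among them Dusp6 with a log2 fold change of -0.015. These counts were near the background, so nothing is read from setting them beside this list. The rise of Fos and of Ccnd1 was known when the list was drawn up, so its count is a description. The immediate early gene Fos had 6.91, 12.0 and 15.1 FPKM in the controls and 118, 103 and 85.99 FPKM with metformin, a difference of 3.11 on the log2 scale (standard error 0.27, adjusted p = 0.000444). Ier3, an early response gene, had 13.5, 18.5 and 15.8 FPKM in the controls and 61.6, 61.4 and 61.2 FPKM with metformin, a difference of 1.89 on the log2 scale (standard error 0.12, adjusted p = 0.000165). Egr1, the gene of an early transcription factor, rose by 1.28 (standard error 0.26, adjusted p = 0.0138), a call that was lost without metformin replicate 1 and without metformin replicate 2 (adjusted p = 0.0604 and 0.059). Control replicate 1 was the lowest sample for Fos, for Ier3 and for Egr1, as it was for Dusp1 and Dusp5. Without it the list had 10 genes higher, where 23.4% of all tested genes were, the added call being Fosl1 (adjusted p = 0.00432). Over the 14 alternative fits it had 6 to 11.

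Of 16 growth factor receptor genes, 12 were tested, 1 was higher and 2 were lower, where 13.2% and 9.28% of all tested genes were. The median log2 fold change of the 12 was 0.12. The fibroblast growth factor receptor gene Fgfr1 had 111.5, 111.5 and 126.9 FPKM in the controls and 59.2, 60.4 and 57.4 FPKM with metformin, a difference of -0.97 on the log2 scale (standard error 0.091, adjusted p = 0.000637). Pdgfra, the gene of a platelet-derived growth factor receptor, fell by 0.92 (standard error 0.090, adjusted p = 0.000779). Fgfr3 rose by 0.62 (standard error 0.077, adjusted p = 0.00215), and it overlaps and shares near-identical transcript sequence with G630022F23Rik. All 14 alternative fits made these 3 calls. Without control replicate 1 the list had 4 genes higher and 2 lower, where 23.4% and 20.4% of all tested genes were. Of the pathway genes named with values, Cblb, Dab2ip, Dusp8, Dusp10, Fgfr1, Nf1, Pdgfra, Rasa1, Rps6ka1 and Rras2 overlap other genes, whose reads could be counted in them.

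**Figure D4:**
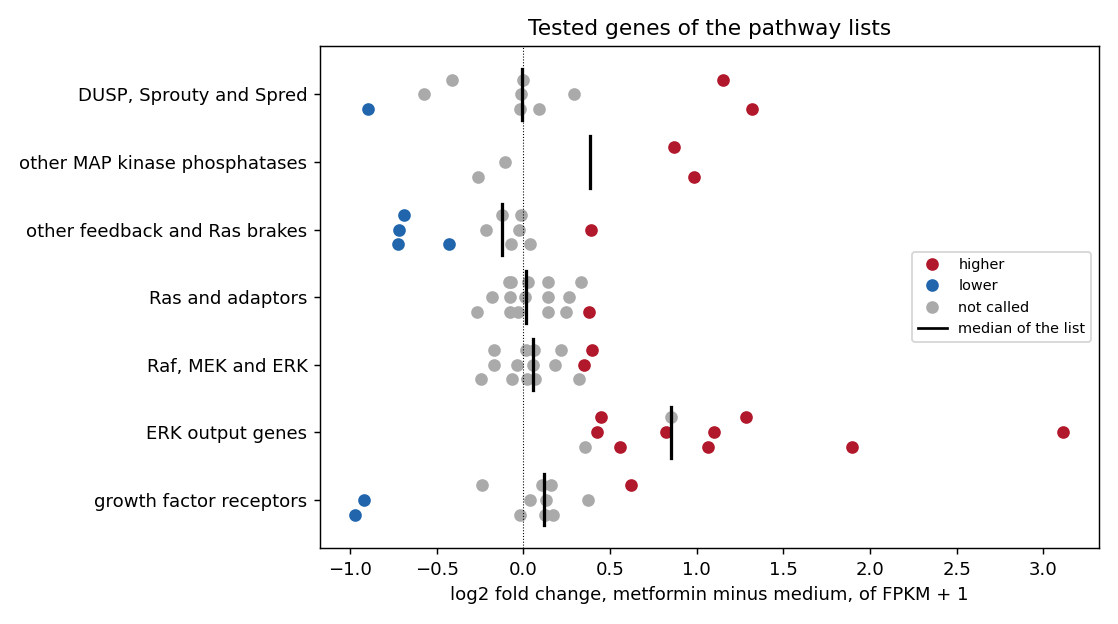
Log2 fold change of FPKM + 1, metformin minus osteogenic medium, of each tested gene (dots, coloured by call) in the 10 feedback genes and the 6 pathway lists, with the median of each as a black bar. The ERK output genes have the highest median, 0.85, and the Raf, MEK and ERK genes lie between -0.25 and 0.39.

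**Figure D5:**
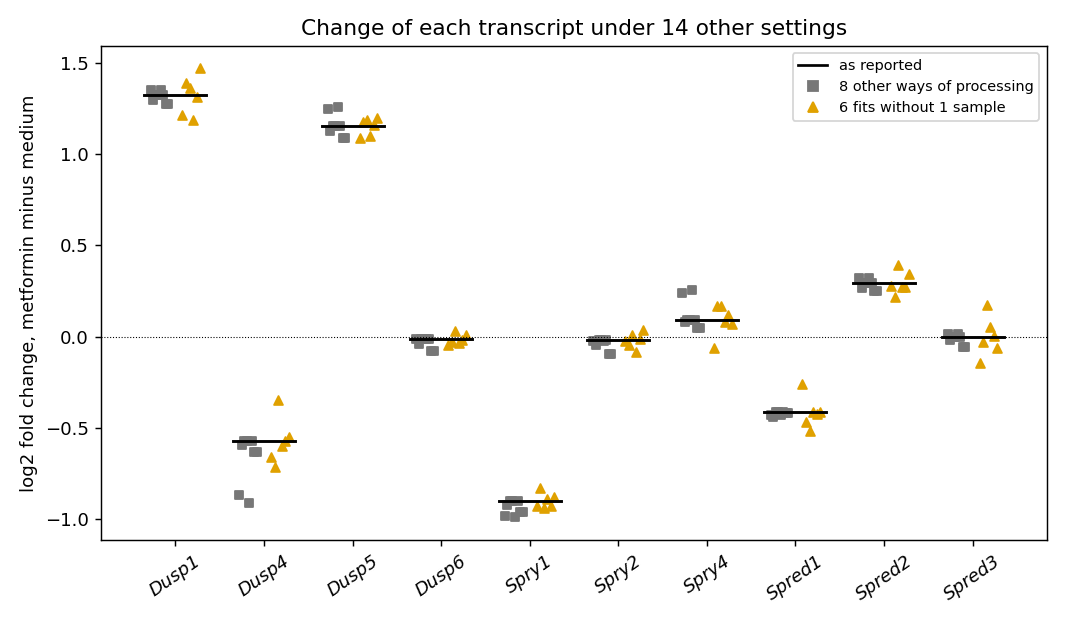
Log2 fold change of each of the 10 genes on the vertical axis as reported (black line), under 8 other ways of processing (grey squares) and in 6 fits that each left out 1 sample (yellow triangles). Dusp1, Dusp5 and Spry1 stay at 1.19 to 1.47, 1.09 to 1.26 and -0.99 to -0.83, and Dusp4 has the widest range, from -0.91 to -0.35.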

How the data were processed

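RNA was sequenced from 3 samples in osteogenic medium and 3 that also received metformin, each said to be a biological replicate. A single table covering 54532 genes was deposited, and its header names no unit. Multiplied by the gene length, every value is a whole multiple of a step that is fixed within a sample (100% within 0.01 of a whole number), so the deposited values are FPKM, and reads were recovered from them. The deposited gene length is in base pairs. The submitters' processing notes name Bowtie 0.12.2 and the builds mm8 and mm9, without a role. The coordinates in the table are those of GRCm38: 53499 of the 54532 genes have the same ones in GENCODE M21. The counting tool is not given in the sources used here. Intervals are limma's and reflect the spread between samples.

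The 6 columns were matched by the sample labels, and 0 other columns of per-sample values were present. Groups were compared with limma 3.58.1 (R 4.3.3) on log2(FPKM + 1) with an intensity trend. Adjustment was by Benjamini and Hochberg over all tested genes. Fits were tested on simulated data with the same relative spread throughout, no outlying sample and no GC trend. A sample such as control replicate 1 was not simulated. The authors tested with DESeq2, which takes counts and was not run. Replicate numbers come from the labels, which do not say that they pair samples. The deviations of same-numbered samples had correlations of -0.053, 0.00027 and -0.055 across genes, so no block was used. No pair of samples agreed within sampling noise (lowest median chi-square per gene 1.18, where counting gives 0.455).

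The 10 genes and all lists were chosen with earlier results of these data known. Named from each pathway list are the called genes, at most 3 in each direction, with Nf1 and Mapk3. A further gene that the rule names is not reported here. Near-identical transcripts were sought at 95% identity over 200 bases (BLAST+ 2.17.0). Other settings tried were total-read scaling, a pseudocount of 0.1, no FPKM limit, at least 10 reads in every sample, voom on the recovered reads, the replicate block, a GC correction (a spline with 5 degrees of freedom per library), that correction with the block, and leaving out each sample. Figures were drawn with matplotlib 3.10.9.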

Additional observations from a re-analysis of the deposited data

How the results depend on the processing

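Over 14 alternative fits, Dusp1, Dusp5 and Spry1 kept their direction and call in every one, and the number of the 10 genes called higher was 2 to 3. With the replicate block the same 3 calls were made, the counts over all genes were 1161 higher and 698 lower in place of 1670 and 1177, and of the called pathway genes Il17rd, Rras2, Rps6ka1, Rps6ka2, Epha2 and Rasa1 (both of the latter named after their values were seen) lost their calls (adjusted p = 0.0697 to 0.117). With the GC correction, 3 of the 10 genes were lower, as they were with it and the block: Dusp4 was called at -0.63 and Spred1 at -0.42 (adjusted p = 0.027 and 0.00384, and 0.036 and 0.0189 with the block). That correction gave 2433 lower genes in all (1888 with the block) and 11 lower pathway genes in place of 6, moved all log2 fold changes by a median of -0.054 and brought the share of calls that were higher from 58.7% to 45.9%. Leaving out 1 sample at a time gave 938 to 2969 higher and 495 to 2590 lower genes, 2 to 3 higher and 1 to 3 lower of the 10, and 9 to 28 higher and 4 to 10 lower pathway genes, with the highest count without control replicate 1 each time, save that 3 of the 10 were higher without control replicate 3. The lowest counts over all genes were those without metformin replicate 1. The cause was not tested. Each fit without a sample left 2 in its group.

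In those 6 fits the values on the log2 scale went from -0.71 to -0.35 for Dusp4, -0.52 to -0.26 for Spred1, 0.22 to 0.39 for Spred2, -0.046 to 0.030 for Dusp6, -0.084 to 0.034 for Spry2, -0.062 to 0.17 for Spry4 and -0.15 to 0.17 for Spred3. Dusp6 turned to 0.030 without control replicate 3 and 0.010 without metformin replicate 3, and Spry2 to 0.0099 and 0.034. Spry4 turned to -0.062 without control replicate 1, as did Mapk3 to -0.011 and Nf1 to 0.066, which otherwise reached 0.35 and -0.23. Spred3 turned to 0.17, 0.051 and 0.0039 without control replicate 3, metformin replicate 1 and metformin replicate 2, to 0.016 with a pseudocount of 0.1 and to 0.013 with voom. Of the genes that turned, Dusp6, Spry2, Spry4, Spred3, Mapk3 and Nf1, none was called in any of those fits, and the causes were not tested. Spry4 and Dusp4 had the fewest reads of the 10 genes in every sample, and the part of depth in their values was not tested.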
